A study of Mus musculus with 13 samples.

Results

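Cdx2, Elf5, Tfap2c, Gata3, Krt7, Krt8, Krt18 and Krt19 are transcription factors and keratins that mark trophoblast, the outer epithelium of the embryo and the source of the placenta, and other simple epithelia. These 8 genes were taken by symbol from the 25965 rows of the expression table, with 1 row for each symbol. Levels are given as log2 CPM, where CPM stands for mapped reads per gene scaled to the depth of the library. Genes were tested where their log2 CPM averaged 0 or more over days 4 to 7, which held for 7 of the 8 genes, all but Elf5, and for 13406 genes in all.

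RNA-seq was run on female F1 mouse embryonic stem cells (mESCs) from FVB/NJ dams and CAST/EiJ sires. The 13 libraries were 1 of undifferentiated cells kept in 2i medium (Day0) and 12 of cells weaned into the serum medium DME HiHi and harvested on days 4, 5, 6 and 7. On day 2 these cells were transduced with retroviral shRNA, and puromycin selected the transduced cells from day 3. Each of these days has 3 libraries, from cells with a nonsilencing hairpin as control (Nons) and from cells with either hairpin against Smarcc1, named Smarcc1.6 and Smarcc1.7. The protein SMARCC1 belongs to the core of BAF, a complex that remodels nucleosomes, and the study asked what its loss does during the onset of X chromosome inactivation. No source used here ties the libraries to separate cultures. For knockdown and hairpins the 4 days were therefore treated as replicates within a group. In the pooled knockdown test both hairpin libraries of a day also entered as separate points against 1 shared Nons library. Any effect shared by both on a day makes the SE and p-values of that test too small for 4 days. Counts of comparisons with same-day Nons are likewise not independent. In the tests of change with day, the 3 libraries of each day entered as independent points. Any effect that they share makes the SE and p-values of those tests too small for 4 time points. All p-values measure only the spread between these libraries. The RNA came from whole cultures, in which fewer cells of a type and less RNA per cell cannot be told apart.

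Depth ranged from 13993440 to 63548093 mapped reads. The share of reads that fell in genes was 85.3% to 86.5% for Day0 and the 3 day 6 libraries, and 91.6% to 92.6% for the remaining 9. Differences between a hairpin and Nons were taken within a day and so within these sets, whereas changes across days, and from Day0, cross them. Smarcc1 itself was lower than same-day Nons in 8 of 8 comparisons, between 31.2% and 76.8% of the Nons level (mean difference -1.06 on the log2 scale, limma adjusted p = 0.00232). The knockdown was weakest on day 7, at 65.5% with Smarcc1.6 and 76.8% with Smarcc1.7. On day 6 these were 50.2% and 46.3% of Nons.

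The trophoblast lineage is set up by a network of transcription factors. Cdx2 represses the pluripotency programme in the outer cells of the blastocyst, Tfap2c and Gata3 act beside it, and Elf5 holds trophoblast stem cells in their lineage once it is switched on. Keratins are the intermediate filaments of epithelia and assemble only as pairs of a type II and a type I protein. In simple, single-layered epithelia the type II partners are Krt8 and Krt7 and the type I partners are Krt18 and Krt19. Krt8 and Krt18 are the first keratins made by the embryo and are abundant in trophectoderm, but visceral endoderm and many later epithelia make them too.

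The hairpins are shown because they define the groups. Each guide is 22 bases long and matched the coding sequence of Smarcc1 in full over its whole length, on chromosome 9 of mm10, in GENCODE M21. The site of Smarcc1.6 is at chr9:110177472-110177493 in exon 13 of 29, and that of Smarcc1.7 at chr9:110173911-110173932 in exon 11. No transcript of another gene held a full match, and the longest run of matching bases in a transcript of the 8 genes was 12 for Smarcc1.6, in Tfap2c, and 11 for Smarcc1.7, in Elf5. Below, 5′ to 3′, the capitals mark the seed, bases 2 to 8 of the guide.
Smarcc1.6: tGTAACTGcttcttcatcctgc
Smarcc1.7: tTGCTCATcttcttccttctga

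Krt7 (chromosome 15, 101411043 to 101430313), Krt8 (101996711 to 102004342, minus strand) and Krt18 (102028216 to 102032026) lie on the same chromosome in mm10, with Krt8 and Krt18 as neighbours, whereas Krt19 lies on chromosome 11 (100140810 to 100148665, minus strand). Their promoters are printed because these genes rose together. Of the 8 genes 6 had a promoter in the RefSeq set used here (GRCm38.p6, the build of mm10), and Krt19 and Tfap2c had none listed. Each is 300 bases, 250 before the annotated start and 50 from it, read along the gene, at chr15:101412153-101412452 (plus strand) for Krt7, chr15:102004293-102004592 (minus) for Krt8 and chr15:102027966-102028265 (plus) for Krt18. Capitals mark every match, on either strand, to 7 motifs searched: the TATA box (TATAAA), the CCAAT box, the GC box (GGGCGG), and the letters bound by AP-1 (TGANTCA), AP-2 (GCCNNNGGC), the GATA factors (AGATAA) and the TEAD factors (GGAATG).
Krt7: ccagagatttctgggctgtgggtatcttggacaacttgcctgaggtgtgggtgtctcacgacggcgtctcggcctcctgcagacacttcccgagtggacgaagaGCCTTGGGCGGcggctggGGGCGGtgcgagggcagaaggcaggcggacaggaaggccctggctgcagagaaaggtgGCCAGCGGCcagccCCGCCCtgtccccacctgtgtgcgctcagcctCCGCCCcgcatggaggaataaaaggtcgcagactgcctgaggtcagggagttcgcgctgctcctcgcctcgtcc
Krt8: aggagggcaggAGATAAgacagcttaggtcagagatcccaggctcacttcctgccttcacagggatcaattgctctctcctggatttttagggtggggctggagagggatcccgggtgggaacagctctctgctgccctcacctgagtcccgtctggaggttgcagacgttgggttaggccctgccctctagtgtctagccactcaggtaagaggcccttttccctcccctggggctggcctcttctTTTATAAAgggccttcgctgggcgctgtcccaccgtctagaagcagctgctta
Krt18: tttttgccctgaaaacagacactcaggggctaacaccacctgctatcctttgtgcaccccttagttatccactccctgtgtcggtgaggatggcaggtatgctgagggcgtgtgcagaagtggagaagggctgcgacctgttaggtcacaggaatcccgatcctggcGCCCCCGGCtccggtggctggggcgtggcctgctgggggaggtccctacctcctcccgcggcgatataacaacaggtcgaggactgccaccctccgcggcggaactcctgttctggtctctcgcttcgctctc

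AP-2 is the family of Tfap2c, and the AP-2 letters were found in 4 of the 6 genes with a promoter, Krt7 (2 matches), Krt18 (1), Gata3 (3) and Cdx2 (1), against 16.6% of all 32851 promoters. Krt8 held none of them but had TATAAA, once on each strand and overlapping, and AGATAA, which stand in 13.6% and 11.2% of all promoters. The TATAAA matches of Krt8 lie at bases -3 to 3 and -1 to 5, across the annotated start itself. The GC box, present in 35.7% of promoters, was found 4 times in Krt7 and 2 times in Gata3. In Krt7 the first GC box overlaps the first AP-2 match. The AP-1 letters, in 7.81% of promoters, were in none of the 6 genes, and the 2 start sites of Elf5 held only 1 TEAD match, a motif found in 14.7%. CCAAT, in 37.4% of promoters, was found only in Cdx2 among these genes. These are matches of letters, not measured binding sites.

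The 4 keratins rose steeply from day 4 to day 7 in every group. Krt8, the type II partner of the first embryonic keratin pair, had a log2 CPM of -0.09 at Day0 (21 reads). Its Nons levels on days 4, 5, 6 and 7 were 2.96, 7.02, 9.02 and 11.07. It was 3.17, 6.05, 8.10 and 10.91 with Smarcc1.6 and 2.86, 6.11, 8.34 and 10.60 with Smarcc1.7. Each day lay above the day before in all 3 groups, and the ranges of the days did not overlap. By day 7 Krt8 stood at 2147 CPM in Nons, 2278-fold over the single Day0 library. Its change was 2.57 ± 0.11 (SE) log2 units per day (limma, group as a factor, adjusted p = 1.64e-07).

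Krt18, the type I partner of Krt8, went from 0.52 at Day0 to 3.75, 6.34, 8.82 and 10.38 log2 CPM in Nons. With Smarcc1.6 its levels were 4.10, 5.73, 8.06 and 10.27, and with Smarcc1.7 they were 3.84, 5.87, 8.40 and 10.14. As for Krt8, no level of one day overlapped that of another. Its change per day was 2.15 ± 0.06 (SE, limma adjusted p = 2.58e-08), with the smallest SE of the 7 tested genes. Per kilobase of annotated exon, Krt8 minus Krt18 was -1.23, 0.23, -0.25 and 0.24 on the log2 scale in Nons on days 4 to 7, and between -1.43 and 0.19 in the hairpin libraries. On day 4 Krt18 was thus the higher of the partners per length in all 3 groups, and on day 7 Krt8 was, by as little as 0.02 with Smarcc1.7.

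Krt7, a type II keratin of ducts and placental epithelium, started later. It was at -0.31 log2 CPM at Day0 (18 reads) and still at 0.23, 0.80 and 0.56 on day 4 in Nons, Smarcc1.6 and Smarcc1.7. In Nons it then reached 4.22, 6.33 and 7.45 on days 5, 6 and 7, against 2.51, 5.10 and 7.25 with Smarcc1.6 and 3.17, 5.45 and 6.99 with Smarcc1.7. The step from day 4 to day 5 was the largest of its daily steps in Nons. Its change per day was 2.24 ± 0.13 (SE, limma adjusted p = 9.51e-07).

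Krt19, a small type I keratin that lacks the usual tail domain, had its largest step in Nons later than Krt7. On day 4 it was already 5.35-fold over Day0 in Nons, against 1.45-fold for Krt7. Its log2 CPM was -0.23 at Day0 and 2.19, 3.16, 6.85 and 8.36 in Nons. It was 2.63, 2.89, 5.48 and 7.91 with Smarcc1.6 and 2.58, 2.79, 6.12 and 8.18 with Smarcc1.7. Levels on days 4 and 5 were close with both hairpins but less so in Nons. The largest step fell between days 5 and 6 in all 3 groups, by a narrow margin with Smarcc1.6. Its change per day was 2.02 ± 0.18 (SE, limma adjusted p = 7.16e-06). Day 6 belongs to the libraries with the lower share of reads in genes, and that difference's part in the step was not tested. Without day 6 the changes per day were 2.57 for Krt8, 2.12 for Krt18, 2.20 for Krt7 and 1.99 for Krt19. Together the 4 keratins went from 4.04 CPM at Day0 to 238, 1165 and 3983 CPM on days 5, 6 and 7 in Nons, against 133, 621 and 3544 CPM with Smarcc1.6 and 144, 775 and 3101 CPM with Smarcc1.7.

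**Figure D1:**
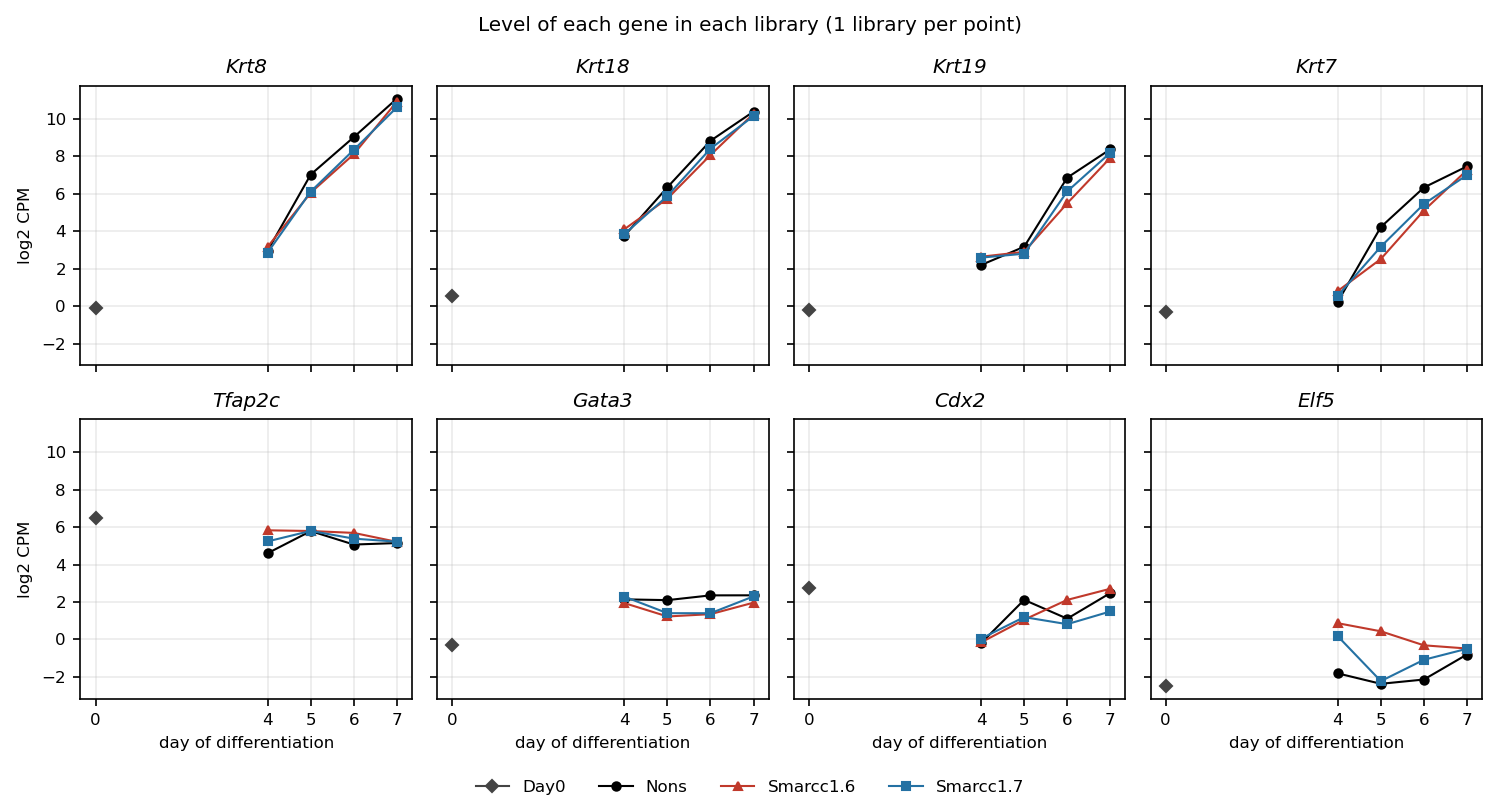
Log2 CPM of the 8 genes (vertical axis) by day of differentiation (horizontal axis), 1 library per point, for Day0, Nons, Smarcc1.6 and Smarcc1.7. The keratins climb from near 0 at Day0 to between 6.99 and 11.07 on day 7, whereas Tfap2c, Gata3 and Cdx2 stay between -0.20 and 5.83 on days 4 to 7.

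The transcription factors did not follow this course. Cdx2, the homeobox factor of trophectoderm and later of the posterior body and gut, was highest in Day0, at 2.74 log2 CPM (6.69 CPM, 149 reads). The Nons levels over days 4 to 7 were -0.20, 2.11, 1.11 and 2.48. Those of Smarcc1.6 were -0.16, 1.06, 2.11 and 2.71, and those of Smarcc1.7 were 0.05, 1.19, 0.82 and 1.49. All 3 groups were lowest on day 4 and none passed the Day0 level. Its change per day was 0.69 ± 0.15 (SE, limma adjusted p = 0.00249), and without day 4 it was 0.39 with an adjusted p of 0.169, so the call rests on the low day 4 libraries.

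Tfap2c, an AP-2 factor of trophoblast and of primordial germ cells, was also highest in Day0, at 6.46 log2 CPM. It stayed between 4.61 and 5.83 in the 12 later libraries, with no call for change per day (-0.05 ± 0.09, SE, limma adjusted p = 0.642). Gata3, a zinc finger factor of trophectoderm, differed from both. It stood at -0.31 log2 CPM in Day0 (18 reads) and at 2.14, 2.10, 2.35 and 2.36 in Nons on days 4 to 7. The Nons levels were all more than 5-fold over the single Day0 library and nearly flat, and the change per day was 0.04 ± 0.10 (SE, limma adjusted p = 0.762). Leaving out day 4 made 1 call for each, a fall of Tfap2c by 0.30 per day (adjusted p = 0.00854) and a rise of Gata3 by 0.32 per day (adjusted p = 0.0487).

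Elf5 is an ETS factor whose promoter has been described as methylated in embryonic cells and open in trophoblast stem cells. Promoter methylation was not examined here. Elf5 was scarce in these libraries. It had 4 reads in Day0 (-2.48 log2 CPM) and between 3 and 116 reads in the other libraries. Its Nons levels from day 4 to day 7 were -1.81, -2.37, -2.14 and -0.80 log2 CPM. The Smarcc1.6 levels were 0.87, 0.44, -0.31 and -0.48, and the Smarcc1.7 levels 0.17, -2.22, -1.08 and -0.50. Smarcc1.6 was above every Nons library on all 4 days, whereas Smarcc1.7 overlapped Nons. The -2.22 of day 5 rests on 3 reads, at the shallowest depth of the series.

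On the log2 scale per kilobase of annotated exon, the order of levels in Nons on day 7 was Krt8 10.10, Krt18 9.86, Krt19 7.47, Krt7 4.64, Tfap2c 3.27, Cdx2 1.30, Gata3 0.37 and Elf5 -3.36. Among the 3 day 7 libraries Krt8 overlapped Krt18 and Cdx2 overlapped Gata3, and the other neighbours in this order did not overlap. In Day0 the order was led by Tfap2c at 4.58 and Cdx2 at 1.56, followed by Krt18 at -0.00, with the other 5 genes at -1.06 or below. The exon lengths of Krt7 and Elf5 include isoforms with kept introns, which lowers their values on this scale.

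In change per day, 5 of the 7 tested genes rose (the 4 keratins and Cdx2), where 34.9% of all tested genes rose and 25.6% fell, and none of the 7 fell. With each library centred on its median, 3648 of all tested genes rose and 4606 fell, against 4679 and 3435 as deposited, and the same 5 genes rose, with Krt8 at 2.49, Krt7 at 2.16, Krt18 at 2.07, Krt19 at 1.95 and Cdx2 at 0.61 per day. Gata3, which was not called on either scale, went from 0.04 to -0.04. The next question was what the loss of Smarcc1 did to these levels. In the pooled comparison of both hairpins with Nons, with day as a factor, 1 of the 7 genes was called lower, where 4.77% of all tested genes were lower, and none was called higher, where 6.88% were. That gene was Krt8.

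Krt8 was lower than same-day Nons in 7 of 8 comparisons, with a mean difference of -0.50 ± 0.14 (SE, limma adjusted p = 0.0375). The exception was Smarcc1.6 on day 4, at 115% of Nons. On day 5 Krt8 was at 51.1% of Nons with Smarcc1.6 and 53.3% with Smarcc1.7, on day 6 at 53.2% and 62.5%, and on day 7 at 89.4% and 72.5%. The gap was thus widest on days 5 and 6. Day 7 is also the day of the weakest Smarcc1 knockdown relative to Nons, where the Nons level of Smarcc1 was itself lowest. The part of either in the narrower gap was not tested. The call of Krt8 was lost without day 5, 6 or 7, where the limma adjusted p was 0.224, 0.203 and 0.0513 and the difference -0.35, -0.40 and -0.56. It was also lost without the trend in the variance, at an adjusted p of 0.0715. On leaving out single libraries it held for 4 of the 12, with differences of -0.68 to -0.35 and adjusted p values of 0.00388 to 0.177.

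Krt18 followed the same days. It was above Nons on day 4 with both hairpins (128% and 107%) and below it on days 5 (65.6% and 72.3%), 6 (59.1% and 74.8%) and 7 (92.5% and 84.7%). Its mean difference was -0.27 ± 0.12 (SE, limma adjusted p = 0.164). Krt7 had the widest gap of the keratins on day 5 and in the mean. It was at 149% and 125% of Nons on day 4 but 30.7% and 48.4% on day 5, 42.6% and 54.3% on day 6 and 87.0% and 72.6% on day 7 (mean -0.58 ± 0.24, SE, limma adjusted p = 0.137). Krt19 was at 136% and 131% of Nons on day 4, 82.8% and 77.4% on day 5, 38.8% and 60.1% on day 6 and 72.9% and 87.9% on day 7 (mean -0.32 ± 0.18, SE, limma adjusted p = 0.286). Its widest gap came on day 6, the day of its own largest step, where it was wider than that of Krt7 with Smarcc1.6. Single Nons libraries moved these means. Without the Nons library of day 4 the difference was -0.92 for Krt7 (limma adjusted p = 0.00980), -0.43 for Krt18 (0.0158) and -0.56 for Krt19 (0.0352), which would be calls. Without that of day 5 it was -0.31 for Krt7 and -0.18 for Krt18, and without that of day 6 it was -0.16 for Krt18 and -0.07 for Krt19. Without the Smarcc1.6 library of day 6 it was -0.21 for Krt19.

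The 4 keratins were therefore lower than Nons with both hairpins on each of days 5, 6 and 7. When day 4, the day on which 7 of the 8 keratin levels lay above Nons, was left out, Krt8 (-0.68 ± 0.12, SE, limma adjusted p = 0.00570), Krt7 (-0.92 ± 0.19, 0.0146), Krt18 (-0.43 ± 0.10, 0.0204) and Gata3 (-0.66 ± 0.19, 0.0497) were called lower, where 5.04% of all tested genes were. Krt19 fell short of the threshold (-0.56 ± 0.16, SE, limma adjusted p = 0.0513). Day 4 is singled out here by these same values, so these calls are no separate evidence and the 5.04% is not a like baseline for them. They depend on which day was left out, and none of the 7 genes was called without day 5, 6 or 7. The adjusted p values were then 0.493, 0.464 and 0.178 for Krt7, 0.523, 0.526 and 0.211 for Krt18 and 0.294, 0.365 and 0.0753 for Gata3. The median same-day difference of all tested genes lay between -0.04 and 0.02 in each of the 8 comparisons.

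**Figure D2:**
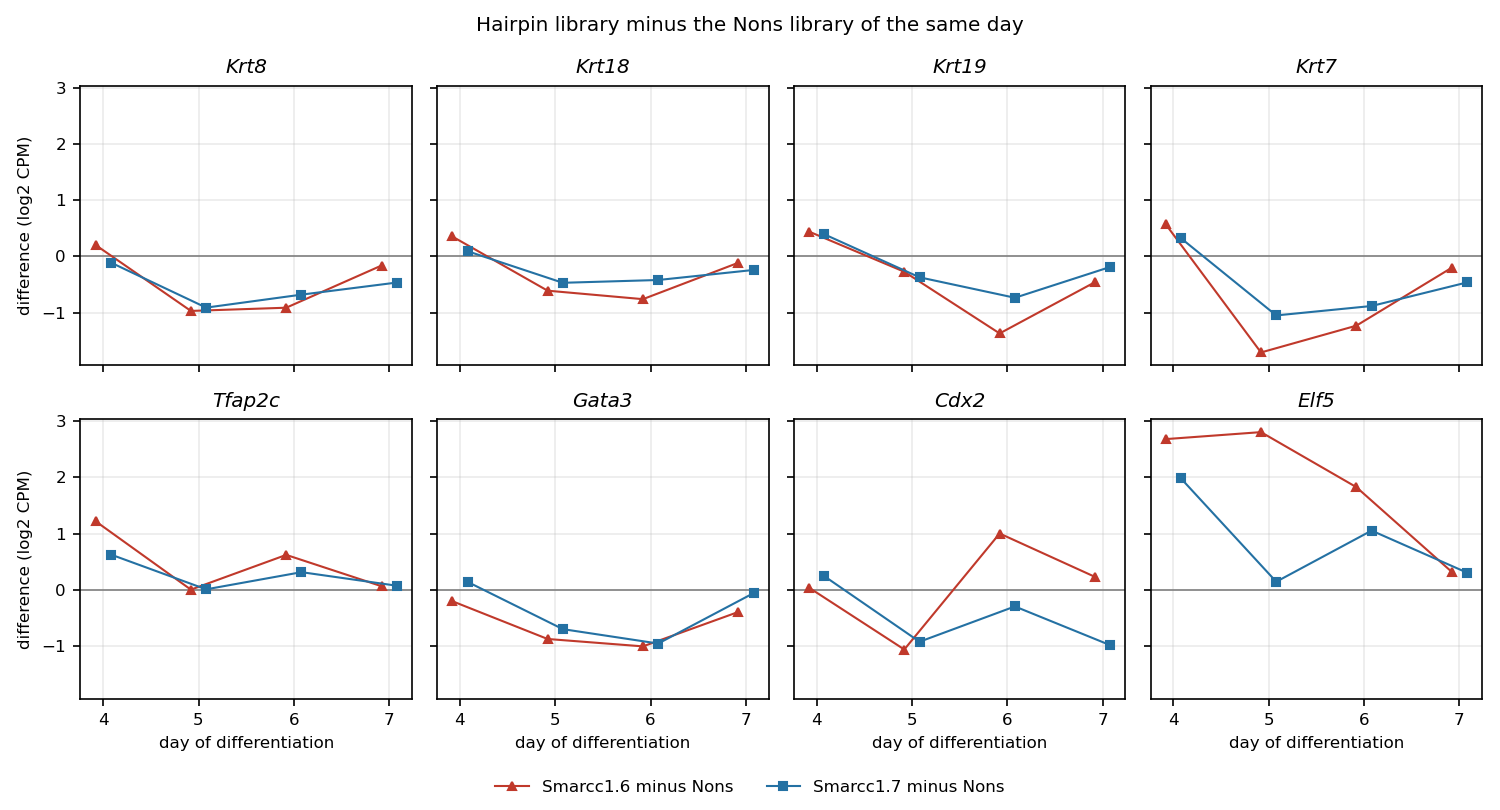
Hairpin library minus the Nons library of the same day in log2 CPM (vertical axis) by day (horizontal axis) for each gene, with Smarcc1.6 as triangles and Smarcc1.7 as squares. The keratins and Gata3 dip below 0 on days 5 and 6 and return towards it on day 7, while Tfap2c and Elf5 stay at or above 0 on all days.

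Gata3 dipped on the same days without rising over time. In Nons it was between 4.29 and 5.12 CPM throughout. With Smarcc1.6 it was at 87.0%, 54.6%, 49.9% and 76.2% of Nons on days 4 to 7, and with Smarcc1.7 at 110%, 61.7%, 51.7% and 96.1%. On days 5 and 6 all 4 hairpin libraries lay below all Nons libraries. Its mean difference was -0.50 ± 0.17 (SE, limma adjusted p = 0.0779), lower in 7 of 8 comparisons, and the hairpin libraries of days 5 and 6 hold 37 to 95 reads. Without the Nons library of day 4 it was -0.66 (limma adjusted p = 0.0330).

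Tfap2c was higher than Nons in 8 of 8 comparisons, but by very different amounts. On day 4 it was at 233% of Nons with Smarcc1.6 and 155% with Smarcc1.7, and on day 6 at 154% and 124%. On days 5 and 7 it was between 100.3% and 105% of Nons. The mean difference of 0.37 ± 0.15 (SE) did not pass the test (limma adjusted p = 0.120), and it was 0.18 without the Nons library of day 4. Cdx2 had no common direction, with 4 comparisons above Nons and 4 below (-0.22 ± 0.30, SE, limma adjusted p = 0.688). On day 5 it was at 48.0% and 52.8% of Nons, and on day 6 it was at 200.2% with Smarcc1.6 and 81.6% with Smarcc1.7.

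Elf5 was higher than same-day Nons in 8 of 8 comparisons. It stood at 640.1% and 395% of Nons on day 4, 698% and 111% on day 5, 354% and 208% on day 6 and 125% and 124% on day 7. The gap narrowed as the Nons level rose on day 7 and the Smarcc1.6 level fell. Elf5 did not pass the filter, and when all 25965 rows were tested its pooled difference of 1.39 ± 0.47 (SE) had a limma adjusted p of 0.0978. With Smarcc1.6 alone it was called higher in that test (1.91 ± 0.50, SE, limma adjusted p = 0.0352), where 3.86% of all rows were. With Smarcc1.7 alone it was not (0.87 ± 0.50, SE, adjusted p = 0.473). At 8 to 17 reads in the Nons libraries, these ratios have wide counting error.

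Each hairpin alone, in a model of 3 groups, called 0 of the 7 tested genes. For Smarcc1.6, 5.59% of all tested genes were higher and 3.71% lower, and for Smarcc1.7, 2.45% were called in either direction. Both comparisons share the Nons libraries. For Krt8 the difference was -0.46 ± 0.16 (SE, limma adjusted p = 0.110) with Smarcc1.6 and -0.54 ± 0.16 (SE, limma adjusted p = 0.101) with Smarcc1.7. The hairpins were also set against each other. None of the 7 genes, and 0% of all tested genes, differed between them in limma after adjustment, with 530 of 13406 genes at an unadjusted p under 0.05. For Krt8 the difference of Smarcc1.6 from Smarcc1.7 was 0.08 with a 95% interval of -0.28 to 0.44, and for Cdx2 it was 0.54 with an interval of -0.18 to 1.26. The change per day did not differ between knockdown and Nons for any of the 7 genes or for any tested gene (0% called in limma, 745 at an unadjusted p under 0.05). This test looks for a steady change over the days and not for a dip on days 5 and 6. The interval for Krt8 was -0.59 to 0.40 log2 units per day.

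Over the 12 libraries of days 4 to 7 the 6 keratin pairs had Pearson correlations of 0.93 to 0.99 in log2 CPM. After the mean of each day was removed they were 0.72 to 0.95, and those of Gata3 with the 4 keratins were 0.76 to 0.81. Tfap2c with the keratins was between -0.17 and -0.04 on that scale. The points share their Nons libraries and day means, so these values describe the 12 libraries only. The tested genes with the courses most like each gene were Cyba (r = 0.995) and Krt7 (0.993) for Krt8, Pdlim2 (0.996) and 1110038D17Rik (0.996) for Krt18, Sema3b (0.995) and Ccdc23 (0.994) for Krt19, and 4933433P14Rik (0.994) and Krt8 (0.993) for Krt7. For the factors they were Arsb (0.955) and Slc35e3 (0.929) for Cdx2, Vsig10l (0.903) and Tnnt3 (0.879) for Tfap2c, and Degs1 (0.918) and Mtss1 (0.915) for Gata3.

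Lists of other genes of these lineages put the 8 in context. Of 19 other trophoblast genes 18 had a row and 12 were tested. Over the days 5 of the 12 rose, beside 34.9% of all tested genes, with the largest rises in Sct (1.68 per day), a peptide hormone gene, and Ets2 (0.53), an ETS factor of trophoblast stem cells, and 1 fell, the AP-2 factor Tfap2a (-0.30). In knockdown 3 of the 12 were lower, beside 4.77% of all tested genes, and none was higher, beside 6.88%. These were Tfap2a (-0.97 ± 0.17, SE, limma adjusted p = 0.00663), Eomes (-0.92 ± 0.26, 0.0440), the T-box factor of trophoblast stem cells and of the primitive streak, and Gata2 (-0.57 ± 0.12, 0.0156), a GATA factor of trophoblast and blood. The median difference of the list was 0.00, beside -0.01 for all tested genes.

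Of the 18 trophoblast genes with a row, 5 genes of differentiated trophoblast were at the floor. Prl3d1 and Prl2c2, prolactin family hormones of giant cells, and Synb, a fusion protein of syncytiotrophoblast, had 0 reads in 13 of 13 libraries, and Tpbpa and Ctsq, genes of spongiotrophoblast and labyrinth, had 1 read in 1 library each. Others were well above it, of which Gcm1 and Syna are named after their values were seen. Gcm1, a factor of syncytiotrophoblast, was at -0.89 log2 CPM in Day0 and at most at 3.90, with no call for change per day (-0.03 ± 0.15, SE, limma adjusted p = 0.872). Syna, like Synb a fusion protein of syncytiotrophoblast, had 0 reads in Day0 and at most 263 reads (2.16 log2 CPM). Some factors that trophoblast shares with other lineages were present at moderate levels, such as Hand1, which ranged from -3.48 log2 CPM in Day0 to 4.83. The summed level of the list went from 170 to 368 CPM in Nons over days 4 to 7, from 207 to 272 CPM with Smarcc1.6 and from 185 to 301 CPM with Smarcc1.7.

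The epithelial lists moved with the keratins over time. Of 22 genes of epithelial junctions, all tested, 18 rose and 1 fell, beside 34.9% and 25.6% of all tested genes, with a median of 0.72 log2 units per day beside 0.04 for all tested genes. The largest rises were in Ap1m2 (2.00), an adaptor for sorting to the basolateral membrane, and Cldn7 (1.97), a tight junction claudin, and the fall was in Grhl2 (-0.47), an epithelial transcription factor. All 10 tested genes of the 11 of the desmosome list rose (median 0.65), led by the desmosomal cadherin Dsc2 (1.67) and the plaque protein Pkp3 (1.37). Desmosomes are the junctions to which keratin filaments are anchored. In knockdown 3 of these 10 were lower, beside 4.77% of all tested genes, and none was higher. They were Dsc2 (-1.09 ± 0.14, SE, limma adjusted p = 0.00193), Dsp (-0.74 ± 0.13, 0.00663), which links the plaque to keratin, and Dsg2 (-0.66 ± 0.17, 0.0267). Of the 22 junction genes only Cldn3 was called in the pooled comparison, and it was higher (0.91 ± 0.18, SE, limma adjusted p = 0.0100), beside 6.88% of all tested genes. With Smarcc1.6 alone Cldn3 was again called higher, beside 5.59%. Lower with Smarcc1.6, beside 3.71%, were Ap1m2 (-0.65 ± 0.12, SE, limma adjusted p = 0.0117) and Cldn6 (-0.89 ± 0.23, 0.0389). With Smarcc1.7 alone none was called.

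**Figure D3:**
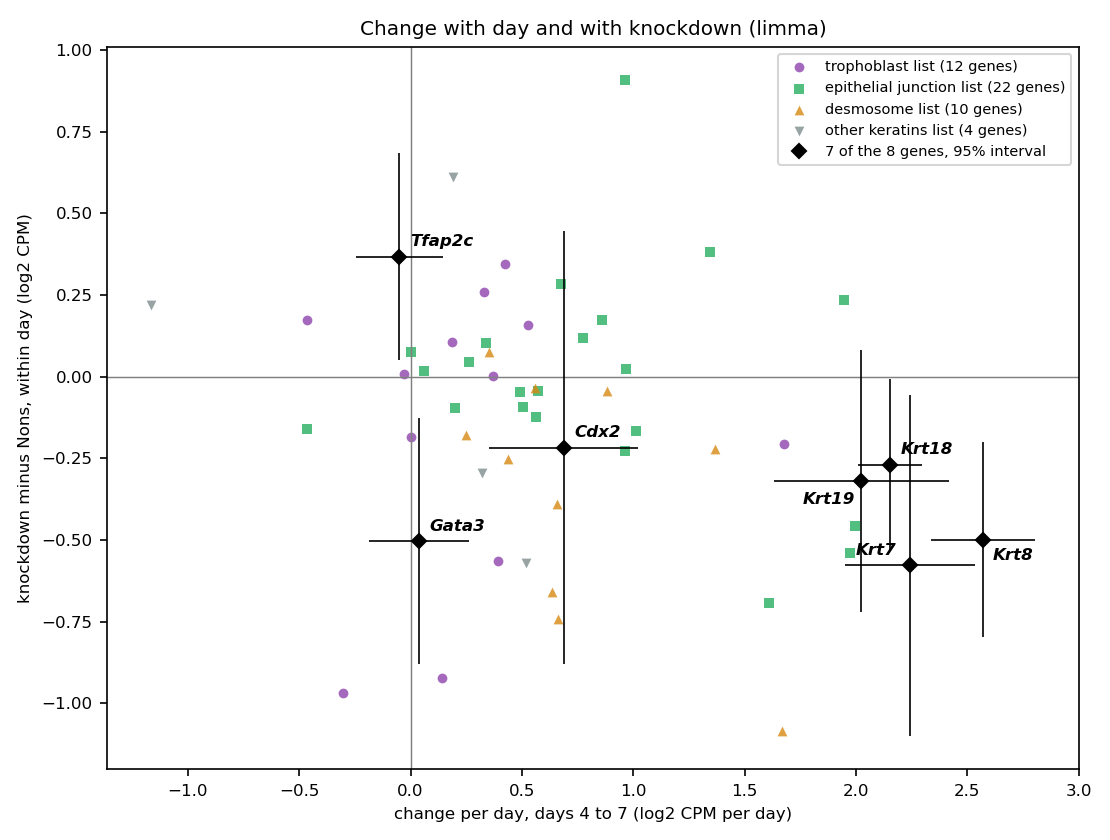
Change per day over days 4 to 7 (horizontal axis, log2 CPM per day) against knockdown minus Nons within day (vertical axis, log2 CPM) for 7 of the 8 genes (diamonds, bars are 95% intervals of limma) and the tested genes of 4 lists. The keratins have the 4 largest changes per day shown, 2.02 to 2.57, and lie below 0 on the vertical axis.

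Of 13 other keratins, most but not all of stratified epithelium and hair, 4 were tested, 1 of which rose with day and 1 of which fell. The summed level of the list was between 9.02 and 28.7 CPM in the 13 libraries. Krt10, of suprabasal epidermis, rose by 0.32 per day, and Krt42 fell by 1.16 per day. In knockdown Krt17, of the basal layer and hair follicle, was higher (0.61 ± 0.17, SE, limma adjusted p = 0.0370). Of 6 genes of surface ectoderm 3 were tested, 2 of which rose with day, Dlx3 (0.94) and Msx2 (0.75), and none was called in knockdown. Beside these counts, 34.9% of all tested genes rose and 25.6% fell with day. In knockdown 6.88% of all tested genes were higher and 4.77% lower.

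Other cell types that make Krt8 and Krt18, or Cdx2, Tfap2c and Gata3, were followed with 4 lists. Their counts stand beside 34.9% of all tested genes that rose and 25.6% that fell with day. In knockdown 6.88% of all tested genes were higher and 4.77% lower. Of 14 genes of extraembryonic endoderm, which is rich in Krt8 and Krt18, 8 were tested. Of these 3 rose, among them Dab2 (0.92 per day) and Gata4 (0.86), and 2 fell, Cubn (-0.40) and Amn (-0.42). In knockdown Cubn was higher (1.56 ± 0.36, SE, limma adjusted p = 0.0197) and Sox17 lower (-0.88 ± 0.24, 0.0369), and the summed level went from 41.2 to 82.1 CPM in Nons over days 4 to 7, from 33.5 to 94.5 CPM with Smarcc1.6 and from 33.8 to 90.9 CPM with Smarcc1.7. Levels differed widely within this list. Ttr, an abundant visceral endoderm transcript, had 0 reads in 9 of the 13 libraries and at most 3. Afp and Apoa1 were at most at -0.77 and -1.27 log2 CPM, whereas Dab2 reached 5.63, Cubn 3.08 and Hnf4a 2.32. Ttr, Afp, Apoa1 and Hnf4a are named after their values were seen.

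Of 8 genes of the posterior primitive streak, where Cdx2 is also made, 3 were tested and 2 rose with day, Fgf8 (1.17) and T (1.07). Both were lower in knockdown, T by -2.50 ± 0.67 (SE, limma adjusted p = 0.0341) and Fgf8 by -1.88 ± 0.23 (0.00186), and the summed level reached 336 CPM in Nons on day 7 against 60.5 CPM with Smarcc1.6 and 31.2 CPM with Smarcc1.7. Of 6 germ cell genes, a lineage that uses Tfap2c, 5 were tested and 3 fell with day, among them Prdm14 (-1.41) and Kit (-0.98). The undifferentiated cells of Day0 already held much of this list, with a summed level of 329 CPM against 102 CPM in Nons on day 4. Prdm14 (6.47 log2 CPM) and Kit (7.48) were highest in Day0, where Dppa3 was at 5.51, whereas Dnd1 was lowest there (1.91). These levels are thus not particular to germ cells. In knockdown Prdm14 (1.62 ± 0.21, SE, limma adjusted p = 0.00193) and Dppa3 (0.99 ± 0.17, 0.00624) were higher and Dnd1 lower (-0.63 ± 0.15, 0.0199). Of 9 mesenchymal genes 8 were tested, with Col1a1 (2.21) and Vim (0.44) rising most among 3 that rose and Zeb1 falling (-0.97). That count of rises is near the 34.9% of all tested genes. In knockdown Cdh2 (-1.01 ± 0.27, SE, limma adjusted p = 0.0324), Twist1 (-0.80 ± 0.21, 0.0339) and Fn1 (-0.80 ± 0.23, 0.0476) were lower and Zeb1 higher (0.68 ± 0.20, 0.0459). The part of any of these cell types in the levels of the 8 genes was not tested.

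Some of the 8 genes share sequence or position with others. Krt8 has a processed pseudogene, Krt8-ps, that was 98.6% identical over 941 bases, and Krt18 has Gm5200 (90.2% over 1269 bases), Gm17847 (86.4% over 1065) and Gm7943 (83.1% over 971). None of the 4 has a row in the table, so the levels of Krt8 and Krt18 are uncertain by the reads such copies take. Gata3 (chromosome 2, 9857078 to 9890034, minus strand) is overlapped by Gm13256 and 4930412O13Rik on the other strand and by 9230102O04Rik on its own strand. Krt7 and Krt8 are overlapped on the other strand by Gm671 (1269 bases) and Gm36026 (271 bases). The strand setting of the counting was not given in the sources used here, so reads of such pairs may not have been told apart. Cdx2 (chromosome 5, 147300805 to 147307270, minus strand), Elf5 (chromosome 2, 103411688 to 103450989) and Tfap2c (chromosome 2, 172549593 to 172558622) had no such copy and no overlapping gene in that annotation.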

How the data were processed

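RNA-seq libraries were made by the authors with TruSeq kits from the cells described above, 13 in all, sequenced as 75 bp paired-end reads, trimmed with trim_galore and aligned with tophat or hisat2 to mm10 with FVB/NJ and CAST/EiJ variant positions masked (the submitters' processing notes name TopHat2 2.0.12). Seqmonk was used to count reads over genes, and the values deposited by the authors are log2 CPM, reads of both alleles scaled to library depth. The annotation release and strand setting were not given in the sources used here. All 13 columns were mapped to samples by title.

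Low values fell on whole multiples of 1 read (100% within a tolerance of 0.02), with 0 reads written as 0.9, which gave the depth of each library. The read counts carried no molecular identifiers, so floors (3 reads) cover counting error only. Linear models were fitted to the deposited log2 values of 13406 genes with limma 3.58.1 in R 4.3.3 (eBayes with trend), adjusted by the Benjamini-Hochberg method over all genes tested, threshold 0.05. Day was a factor for knockdown, each hairpin and hairpin against hairpin. Group was a factor for change per day, and the product of knockdown and day was tested as well. Day0 entered no test. No pseudocount was added. The models were also run on simulated counts drawn independently for each library. Such counts cannot show how effects shared by the libraries of a day change the p-values. Alternatives were no filter, a mean of at least 2, a pseudocount of 0.5 CPM, median centring, no day or group factor, no trend, thinning to 13993440 reads, voom on the recovered reads, 1 hairpin only, and leaving out each day or library.

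The 8 genes, the 9 marker lists (108 genes) and the designs were chosen with earlier results of these data known. Named genes were the 8 genes and Smarcc1, up to 3 genes per direction of each list called in knockdown and up to 2 called for day, the 2 tested genes most correlated with each of the 8, and near-identical copies. Copies came from blastn 2.17.0 against GENCODE M21 transcripts (at least 300 bases and 80% identity). Genes and overlaps were taken from GENCODE M21, promoters from RefSeq (GRCm38.p6) and hairpins from the study's list of oligonucleotides. Python 3.11.15, numpy 2.4.6, pandas 2.3.3 and matplotlib 3.10.9 were used.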

Additional observations from a re-analysis of the deposited data

Results flagged for a closer look

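For 4 genes both hairpins lay above Nons on day 4 and below it on a later day, and this difference between days was not tested. The test of a steady change of the knockdown difference over the days called none of them. For Krt7 the mean difference from Nons was 0.45 on day 4 and -1.38 on day 5, 1.83 log2 units apart. For Krt19 it was 0.42 on day 4 and -1.05 on day 6, 1.47 units apart. Cdx2 moved from 0.14 on day 4 to -0.99 on day 5, 1.13 units apart, and on days 6 and 7 its hairpins lay on opposite sides of Nons. Krt18 moved from 0.22 on day 4 to -0.59 on day 6, 0.81 units apart. The 3 keratins were below Nons with both hairpins on all 3 later days, and Cdx2 on 1 of them. No library stood apart from the other 3 of its group by Dixon's ratio at the 95% level in any of the 40 groups of 4 values checked. Each group of 4 holds days 4 to 7 of a gene and not replicates of a day. Change with day widens its range, so the check could miss an aberrant library, above all for the keratins.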

How the results depend on the processing

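The call of Krt8 in the pooled comparison rested on several libraries. The number of the 8 genes called in knockdown was 1, and it became 0 without day as a factor, without the trend, with Smarcc1.6 and Nons only and with Smarcc1.7 and Nons only. It became 2 after thinning to the smallest depth (Gata3 and Krt8) and with voom on the recovered reads (Krt7 and Krt8). Leaving out 1 day or 1 library gave 0 to 5 genes. Leaving out the Nons library of day 4 gave the 5, and leaving out any of 8 other libraries gave 0, namely Nons of days 5 and 6, Smarcc1.6 of days 5 and 6 and Smarcc1.7 of each day. All called genes were lower. The count for Smarcc1.6 alone was 0, and 1 without the filter (Elf5, higher), 1 after thinning (Gata3, lower) and 1 with voom (Krt8, lower), with 0 to 5 on leaving out a day or library. For Smarcc1.7 that range was 0 to 2. The count for Smarcc1.6 against Smarcc1.7 and for knockdown by day was 0 under every alternative run. The count for change per day stayed between 4 and 6, and the call of each of the 4 keratins held without any 1 day. The difference of Krt8 was called in 11 of 26 alternatives. Over all tested genes 1561 were called in knockdown, and 386 without day 5, 287 without day 6, 611 to 2003 on leaving out 1 library, 4 without day as a factor, 57 with Smarcc1.6 and Nons only and 0 with Smarcc1.7 and Nons only (2363 at an unadjusted p under 0.05 in limma). Krt8, Krt18, Krt19, Krt7 and Gata3 stayed below 0 and Tfap2c above it in knockdown under all alternatives run. Cdx2 in knockdown turned from -0.22 to 0.054 with Smarcc1.6 and Nons only, and on leaving out a day or library it ranged from -0.41 to 0.040, with values above 0 without day 5 or its Nons library. On leaving out a day the change per day ranged from -0.30 to 0.078 for Tfap2c and from -0.21 to 0.32 for Gata3. It was above 0 for Tfap2c and below it for Gata3 without day 5 or day 7, with no call. The causes of these changes were not tested. The day factor pairs each hairpin library with the Nons library of its day, so the fit without it (0 genes called) is the unpaired one. Elf5, with 3 to 116 reads, is limited by depth.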
